A study of Psychotria grandis and Psychotria costivenia and Psychotria revoluta with 6 samples.

Results

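The 45 contigs described here are assembled leaf transcripts whose level was lower in all 4 nickel hyperaccumulator plants than in both plants of a non-accumulator of the same genus, Psychotria. They were chosen from the 45143 contigs of the series on their read counts. Counts were scaled by the library total to a common total of 1000000 (CPM). A contig was taken where its lowest CPM + 0.1 over the 2 Psychotria revoluta plants was at least 4 times its highest CPM + 0.1 over the 4 plants of Psychotria grandis and Psychotria costivenia, with at least 10 counts in each P. revoluta plant. Of the 29422 contigs with that many counts, 0.153% met the rule. The difference between P. revoluta and the hyperaccumulators is therefore what chose the contigs. It is given as a description, with no test.

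The study measured polyA RNA from leaves of 6 wild shrubs, 1 library per plant and 2 plants per species, growing in gallery forest on serpentine soil in Cuba. P. grandis (hyperaccumulator) was collected at Mil Cumbres on 27 June 2014 and P. costivenia (hyperaccumulator) at La Coca on 12 June 2014. P. revoluta (non-accumulator) was collected at Mil Cumbres, plant 1 on 27 July 2014, as its label gives the date, and plant 2 on 27 June 2014. All reads were counted on contigs assembled from a P. grandis plant. P. revoluta shared the locality with P. grandis, and its plant 2 also the date, while P. costivenia differed from both in locality and date. P. revoluta is the only non-accumulator, so species and accumulation cannot be told apart. The labels give separate plants but no controlled growth.

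Nickel hyperaccumulators concentrate nickel in the leaf to amounts that would poison most plants. In hyperaccumulators studied so far the trait has been tied to greater uptake by the root, transport to the shoot with small metal-binding molecules, and storage in the vacuoles of leaf cells. Lists of metal transporters and metal-binding molecules exist for other plants, but the tables give each contig a running number and pair it with no gene name. The 45 contigs are therefore described by their levels, with no function. Nor could the leaf label be set against marker genes. A gene can be split over several contigs, so the number of genes behind them is not known.

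The libraries held 45676087 (P. grandis plant 2) to 57907913 (P. revoluta plant 1) counts. A count of 0 in 1 library allows up to 3 counts, or 0.0518 to 0.0657 CPM, and this limit covers counting error only. The libraries of P. grandis plants 1 and 2 were unlike each other. On the log2(CPM + 1) scale Pearson's r across all contigs was 0.850 between them, against 0.974 between the P. costivenia plants and 0.989 between the P. revoluta plants, with the contigs as shared points that are no replicates. P. grandis plant 1 had the lowest values with the other species, 0.828 and 0.810 with P. costivenia and 0.783 and 0.789 with P. revoluta. P. grandis plant 2 had 0.892 and 0.889 with P. costivenia and 0.960 and 0.963 with P. revoluta. With 2 plants, these values do not say which of them is usual for the species. The header of the count column in both P. revoluta tables carries a species prefix that differs from the label. The species named here is that of the labels, and each result below rests on these libraries.

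The 45 contigs ranged widely in level but were mostly of moderate abundance in P. revoluta. Their median was 0.495 and 0.963 CPM in P. grandis plants 1 and 2 and 0.235 and 0.124 CPM in P. costivenia plants 1 and 2, against 9.33 and 7.75 CPM in P. revoluta plants 1 and 2. The mean over the P. revoluta plants was under 5 CPM for 15 contigs, 5 to 20 CPM for 20 contigs, 20 to 100 CPM for 6 contigs and 100 CPM or more for 4 contigs. As whole leaves were sequenced, fewer cells of a type and less RNA per cell cannot be told apart. No contig rested on a few reads in P. revoluta, where the lowest count was 60. In the hyperaccumulators the counts were low but mostly not absent. All 45 contigs had reads in P. grandis plant 1, with at least 6 counts each, but this plant had reads for 45142 of the 45143 contigs of the series. Counts of 10 or more in every plant were found for 16 of the 45 contigs, with no share computed over the 29422 contigs.

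**Figure D1:**
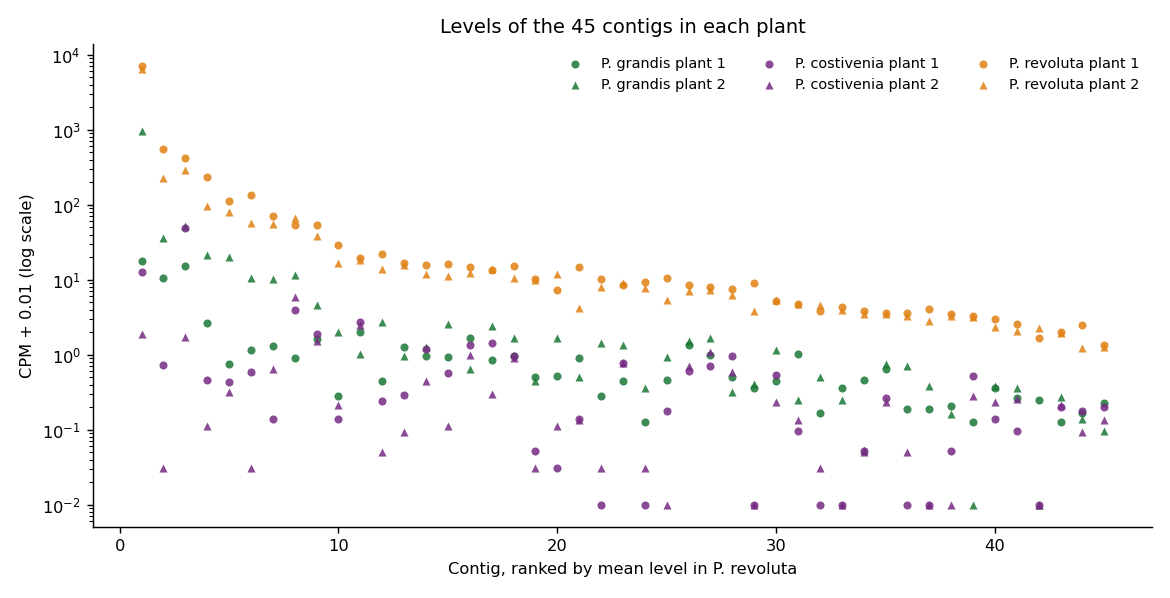
Level of each of the 45 contigs (horizontal axis, ranked by mean level in P. revoluta) as CPM + 0.01 on a log scale, with a circle for plant 1 and a triangle for plant 2 of each species; points at the bottom are counts of 0. The P. revoluta points lie above all others by the choice of the contigs, P. grandis plant 2 reaches 964.9 CPM for the most abundant contig, and several P. costivenia points lie at 0.

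The widest gap on the CPM + 0.1 scale was found for Pgra_v1_contig_42315. It had 0.119 and 0.350 CPM in P. grandis, 0 and 0.0207 CPM in P. costivenia, and 9.33 and 7.75 CPM in P. revoluta. The counts behind these levels were 6 and 16 in P. grandis, 0 and 1 in P. costivenia, and 540 and 378 in P. revoluta. The lowest P. revoluta value was 17.4 times the highest hyperaccumulator value on the CPM + 0.1 scale. That highest value came from P. grandis plant 2, and without this plant the ratio was 35.9. With all plants the ratio was 9.70 on the CPM + 0.5 scale and 6.48 on the CPM + 1 scale. On these scales Pgra_v1_contig_26518 had larger ratios, 10.4 and 7.27.

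Pgra_v1_contig_26518 followed. It had 0.495 and 0.438 CPM in P. grandis, 0.0428 and 0.0207 CPM in P. costivenia, and 10.4 and 9.86 CPM in P. revoluta, a ratio of 16.7. Here the plants of P. grandis lay close together, as did those of P. revoluta. The P. costivenia levels came from 2 and 1 counts, under the limit that a count of 0 allows. P. grandis averaged 0.466 ± 0.0401 CPM, P. costivenia 0.0317 ± 0.0156 CPM and P. revoluta 10.1 ± 0.380 CPM (SD, n = 2 each). The ratio fell off quickly below these contigs: 7 contigs reached 8, 22 contigs lay between 5 and 8, 16 contigs lay under 5, and the median was 5.44.

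The most abundant of the 45 contigs was Pgra_v1_contig_35332, named after its values were seen. It had 17.6 and 964.9 CPM in P. grandis, 12.6 and 1.88 CPM in P. costivenia, and 7113 and 6547 CPM in P. revoluta. The P. revoluta plants were alike, while the plants of P. grandis differed by far more, with plant 2 above the other 3 hyperaccumulator plants by 54.5-fold or more on the CPM + 0.1 scale. The summed level of the 45 contigs was 72.5 and 1163 CPM in P. grandis and 84.3 and 22.9 CPM in P. costivenia, against 9062 and 7713 CPM in P. revoluta. Without this contig the sums were 54.9 and 198 CPM in P. grandis and 71.7 and 21.0 CPM in P. costivenia, against 1948 and 1166 CPM in P. revoluta.

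The next contigs by level in P. revoluta did not share 1 pattern in the hyperaccumulators. The second had 10.5 and 36.0 CPM in P. grandis, 0.727 and 0.0207 CPM in P. costivenia, and 551 and 230.0 CPM in P. revoluta. The third had 15.2 and 52.7 CPM in P. grandis, 49.1 and 1.70 CPM in P. costivenia, and 417 and 287 CPM in P. revoluta. In the second contig both P. grandis plants lay above both P. costivenia plants, while in the third P. grandis plant 2 and P. costivenia plant 1 lay together near the top. The fourth had 2.67 and 21.2 CPM in P. grandis, 0.449 and 0.103 CPM in P. costivenia, and 234 and 95.3 CPM in P. revoluta. It shared with the second contig a level in P. revoluta plant 1 more than 2 times that in plant 2.

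**Figure D2:**
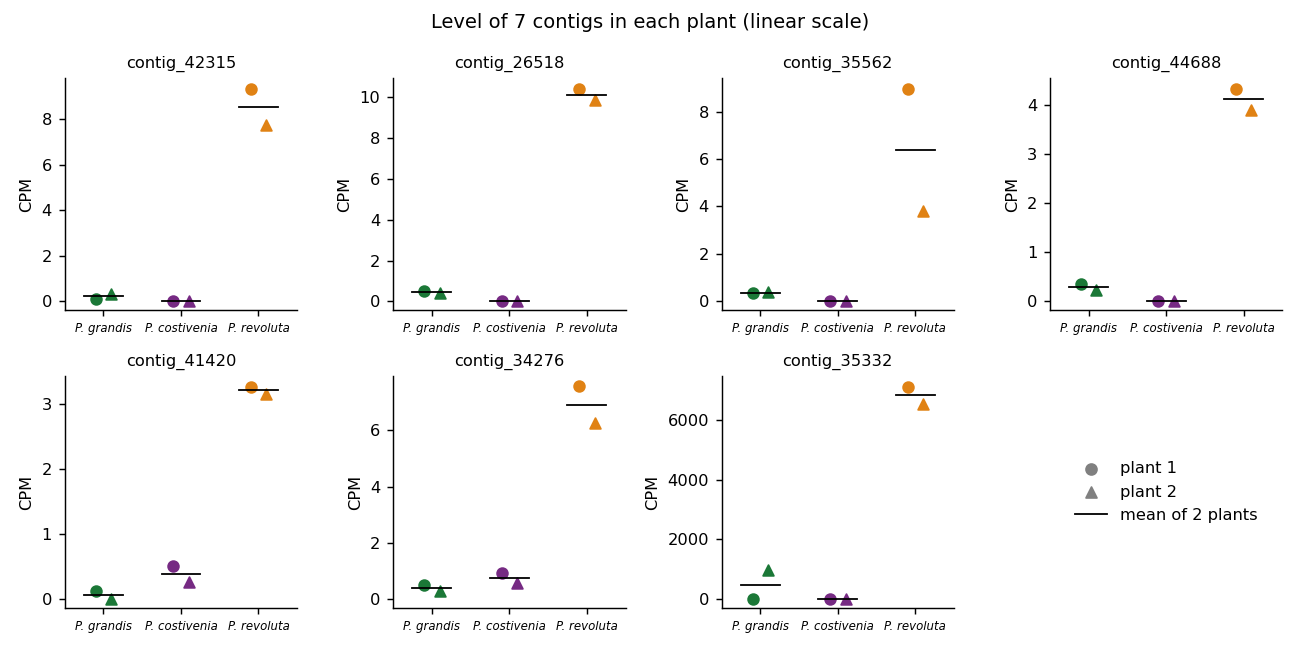
Level of 7 contigs as CPM on a linear scale that includes 0 (vertical axis) in P. grandis, P. costivenia and P. revoluta, with a circle for plant 1, a triangle for plant 2 and a line at the mean of 2 plants. In Pgra_v1_contig_35332 P. grandis plant 2 lies at 964.9 CPM, far above the other 3 hyperaccumulator plants.

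Within the hyperaccumulators the 45 contigs ran from nearly level to very uneven. The highest of the 4 plants was 4.72 times the lowest in the median contig, on the CPM + 0.1 scale, and 3.52 times over the 29422 contigs. It was at most 2 times the lowest in 4 of the 45 contigs, against 21.2% of the 29422, and over 10 times in 13, against 17.8%. Among the 4 even contigs, the most abundant had 0.969 and 1.69 CPM in P. grandis, 0.941 and 0.911 CPM in P. costivenia, and 15.1 and 10.6 CPM in P. revoluta. In 8 of the 45 contigs P. grandis plant 2 lay at least 4-fold above the next hyperaccumulator plant. No share of the 29422 contigs was computed for this, and P. grandis plant 2 was the highest of the 4 plants in 43.1% of them.

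Reads were scarcest in P. costivenia. At most 3 counts were found for 0 and 3 of the 45 contigs in P. grandis plants 1 and 2 and for 12 and 15 contigs in P. costivenia plants 1 and 2. Over the 29422 contigs the shares with so few counts were 0.0034% and 0.411% in P. grandis plants 1 and 2 and 6.67% and 6.62% in P. costivenia plants 1 and 2. For 11 contigs both P. costivenia plants were at 3 counts or fewer, which can hold for at most 6.62% of the 29422 contigs. For 4 of the 11 both plants were at 0, with no share computed over the 29422. Those 4 contigs were at least 62.6-fold to at least 202-fold lower in P. costivenia than in the P. revoluta mean, with a floor of 3 counts over both P. costivenia plants. In P. grandis plant 1 the same 4 contigs had 9 to 18 counts, and in P. grandis plant 2 they had 0 to 18 counts. The sequences of P. costivenia and P. revoluta transcripts may match P. grandis contigs unequally, and its part in these counts was not tested.

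The list depended mainly on P. grandis plant 2. When the rule was applied to the other 5 plants, 1890 contigs met it, and P. grandis plant 2 itself met it for 45 of these, or 2.38%. In those 1890 contigs the level of P. grandis plant 2 had a median of -0.49 on the log2 scale relative to the lowest P. revoluta plant, from -0.86 to -0.12 between the lower and upper quartiles. Over all 29422 contigs that median was 0.14. P. grandis plant 2 lay nearer to the other 3 hyperaccumulator plants than to P. revoluta in 141 of the 1890 contigs, or 7.46%, taking the midpoint on the log2 scale. It lay above both P. revoluta plants in 167 contigs.

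The other plants left the list closer to its size. Without P. grandis plant 1, 82 contigs met the rule, and plant 1 met it for 45 of these, or 54.9%. Without P. costivenia plant 1, and likewise without P. costivenia plant 2, 46 contigs met it, and the plant left out met it for 45 of these, or 97.8%. Without P. revoluta plant 2 there were 134 contigs, of which plant 2 also met the rule for 33.6%, and without P. revoluta plant 1 there were 64, of which plant 1 met it for 70.3%.

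**Figure D3:**
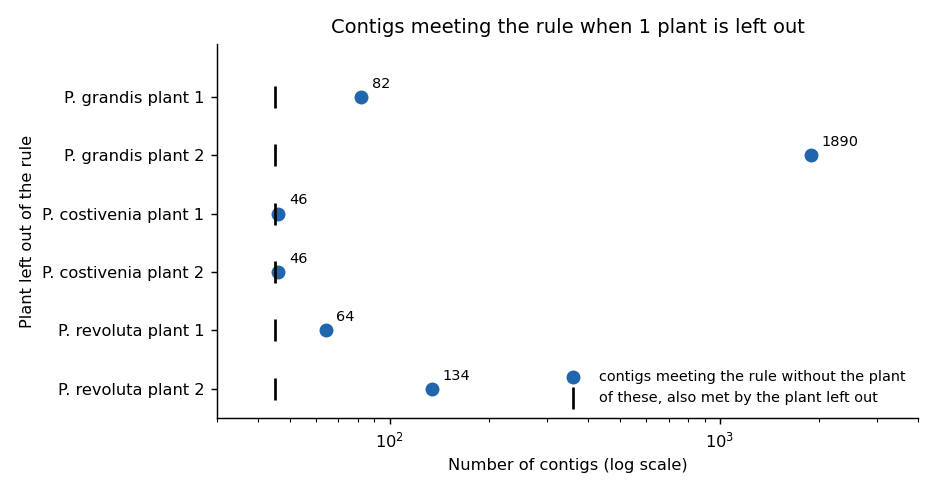
Number of contigs that met the rule (horizontal axis, log scale) when the plant on the vertical axis was left out (blue points), and the number of these for which the plant left out also met it (black bars, 45 throughout). Leaving out P. grandis plant 2 gives 1890 contigs, and leaving out any other plant gives 46 to 134.

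P. grandis plant 2 was the highest hyperaccumulator plant for 31 of the 45 contigs, P. grandis plant 1 for 10 contigs, P. costivenia plant 1 for 4 contigs and P. costivenia plant 2 for 0 contigs. The same plant was highest in 43.1% of all 29422 contigs. It was highest in 81.7% of the 7832 contigs in which both P. revoluta plants lay above all 4 hyperaccumulator plants but which the rule did not take. The order P. costivenia, P. grandis plant 1, P. grandis plant 2, P. revoluta, from low to high, was found for 22 of the 45 contigs, or 48.9%, against 9.33% of the 29422 contigs and 34.8% of the 7832 contigs. The choice of the contigs fixes the last step of this order.

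Setting P. grandis beside P. costivenia asked whether both hyperaccumulators were low to the same degree. The rule sets a ceiling over the plants of both species and uses no difference between them. Both P. grandis plants lay above both P. costivenia plants for 29 of the 45 contigs, against 36.6% of the 29422 contigs and 42.5% of the 7832 contigs. Both lay below for 3 contigs (19.1% of the 29422 and 2.99% of the 7832), and the plants overlapped for 13 contigs. All 45 contigs passed the filter on low counts in the fit of all 6 libraries, where reads of any species could carry them through it. The log2 fold change was positive, that is higher in P. grandis, for 37 contigs and negative for 8, and positive for 56.9% of all contigs tested. Its median was 2.35, or 2.26 with the 4 contigs unread in P. costivenia set to their lower limit, and the median over all 35660 contigs tested was 0.24. With library totals in place of TMM (a scaling that sets most contigs equal), these medians were 2.51 and 0.48, and 39 of the 45 fold changes were positive (64.4% of all tested). Leaving out P. grandis plant 1 gave a median of 1.27 for the 45 contigs, leaving out plant 2 of that species gave 1.26, and leaving out P. costivenia plant 2 gave 1.65. In these fits, in the same order, 37, 35 and 34 of the 45 fold changes were positive (51.9%, 56.7% and 60.7% of all tested). The medians over all contigs tested were 0.07, 0.32 and 0.45. In a fit of the P. grandis and P. costivenia libraries alone, 35 of the 45 contigs passed the filter, with 31 positive fold changes (58.8% of all tested) and a median of 2.25.

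None of these differences passed the adjusted threshold. Of the 45 contigs, 0 were called higher (1.83% of all contigs tested) and 0 lower (0.852%) by edgeR's quasi-likelihood test with Benjamini-Hochberg adjustment at 0.05, and the smallest adjusted p was 0.0569, for Pgra_v1_contig_26518. Before adjustment, 20 of the contigs were higher with a p of at most 0.05 (15.6% of all tested) and 0 lower (10.5%). In the fit of the P. grandis and P. costivenia libraries alone, 0 of the 35 contigs were called by edgeR (smallest adjusted p 0.142) and 12 were higher before adjustment (13.2% of all tested). In the fit of all 6 libraries, DESeq2 called 17 contigs higher (13.3%) and 0 lower (9.10%). Like the edgeR fit of all 6 libraries, it included contigs that passed the filter only with the P. revoluta libraries. The rule chose the contigs as high there, and no DESeq2 count was made for the 35 contigs alone. Leaving out P. grandis plant 1 or plant 2 left that species with 1 plant, which was assumed to vary like the other species. The numbers called in those fits are therefore not set beside these.

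Pgra_v1_contig_35562 and Pgra_v1_contig_44688 had the largest positive log2 fold changes in the edgeR fit, 7.18 and 6.87. This ranking was among the contigs with at least 10 counts in both P. grandis plants and no overlap. Counts of 0 in P. costivenia lie behind these values, and the lower limits given below are 3.33 and 3.02 on the log2 scale. Other such contigs with reads in P. costivenia had fitted values above these limits, as the second contig by P. revoluta level at 5.66. Pgra_v1_contig_35562 had 0.356 and 0.394 CPM in P. grandis, no reads in either plant of P. costivenia, and 8.95 and 3.81 CPM in P. revoluta. It was at least 11.9-fold higher in P. grandis than in P. costivenia, with 3 counts over P. costivenia as the floor (adjusted p = 0.0651 by edgeR). Pgra_v1_contig_44688 had 0.356 and 0.241 CPM in P. grandis, no reads in either plant of P. costivenia, and 4.33 and 3.91 CPM in P. revoluta. It was at least 9.46-fold higher in P. grandis than in P. costivenia (adjusted p = 0.0604 by edgeR). DESeq2 called both, with adjusted p = 0.00145 for Pgra_v1_contig_35562 and 0.00234 for Pgra_v1_contig_44688, and edgeR called both when either P. grandis plant was left out (adjusted p = 0.0140 to 0.0430). Over all alternatives the adjusted p ran from 0.00145 to 0.276 for Pgra_v1_contig_35562 and from 0.00234 to 0.257 for Pgra_v1_contig_44688.

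In the opposite direction the fold changes were smaller. Pgra_v1_contig_41420 had 0.119 and 0 CPM in P. grandis, from 6 and 0 counts, 0.513 and 0.269 CPM in P. costivenia, and 3.26 and 3.16 CPM in P. revoluta. Its log2 fold change of P. grandis over P. costivenia was -2.82 (SE 1.28, adjusted p = 0.232 by edgeR), and it was called without P. grandis plant 1 (adjusted p = 0.0223 by edgeR), which left only the plant at 0 counts. Over all alternatives its adjusted p ran from 0.0223 to 0.550. Pgra_v1_contig_34276 had 0.495 and 0.307 CPM in P. grandis, 0.941 and 0.579 CPM in P. costivenia, and 7.56 and 6.25 CPM in P. revoluta. Its log2 fold change was -1.13 (SE 0.60, adjusted p = 0.285 by edgeR), which passed in no alternative (adjusted p = 0.0825 to 0.608). For both contigs the plants of the 2 hyperaccumulators did not overlap.

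**Figure D4:**
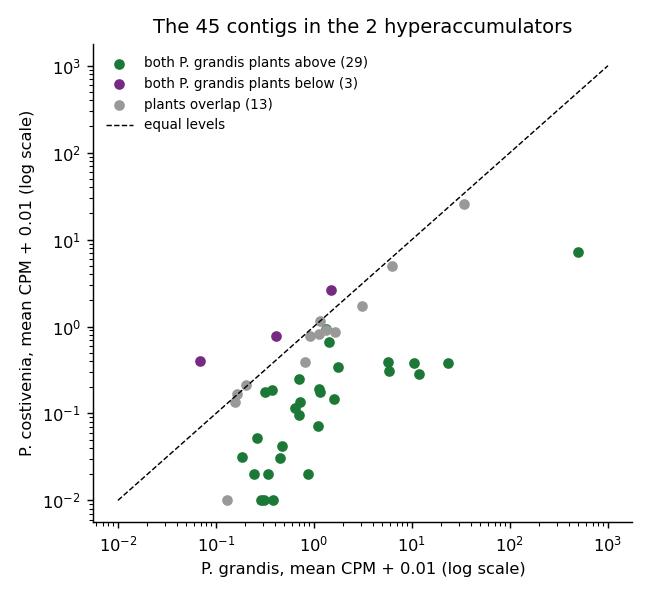
Mean level of each of the 45 contigs over 2 plants in P. grandis (horizontal axis) and P. costivenia (vertical axis), as CPM + 0.01 on log scales, with the line of equal levels. In 29 contigs both P. grandis plants lie above both P. costivenia plants, in 3 they lie below and in 13 the plants overlap.

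The plants of a species differed from each other in a way that varied with the species. In P. grandis, plant 2 was at least 2-fold above plant 1 for 20 of the 45 contigs (33.8% of the 29422 contigs), on the CPM + 0.1 scale. It was at least 2-fold below for 5 contigs (15.1% of the 29422). In P. costivenia, plant 1 was at least 2-fold above plant 2 for 11 contigs (7.22% of the 29422) and at least 2-fold below for 1 contig (6.44%). At most 3 counts were found for 12 and 15 of the 45 contigs in P. costivenia plants 1 and 2. In P. revoluta, plant 1 was above plant 2 for 38 contigs (56.5% of the 29422 and 65.7% of the 7832), by a median of 1.20-fold. It was at least 2-fold above for 6 contigs (4.33% of the 29422 and 2.22% of the 7832) and at least 2-fold below for 0 (2.56% of the 29422). With 1 library per plant these differences have no replicate check.

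**Figure D5:**
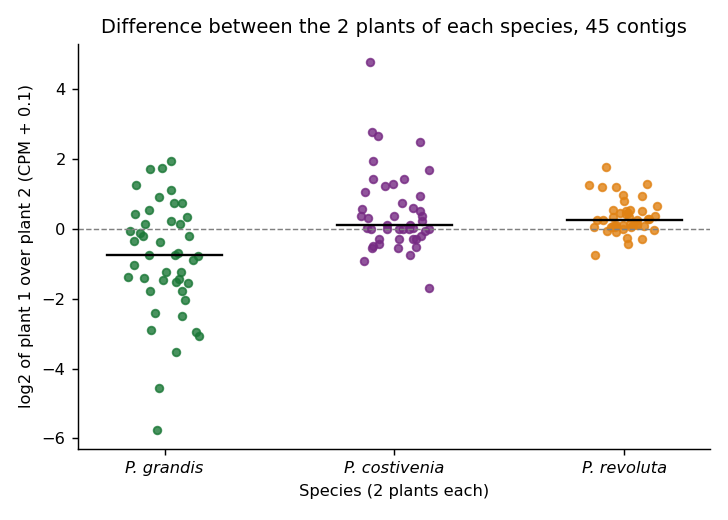
Log2 of plant 1 over plant 2 (vertical axis, CPM + 0.1) for each of the 45 contigs in P. grandis, P. costivenia and P. revoluta, with a line at the median. Most P. grandis points lie below 0 and most P. revoluta points above it, where plant 1 was higher for 38 of 45 contigs.

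Against P. revoluta the fitted values follow from the choice of the contigs and support nothing. The median log2 fold change of the 45 contigs was -3.49 for P. grandis over P. revoluta and -5.91 for P. costivenia over P. revoluta. The comparisons share the P. revoluta libraries.

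Contigs lay close to the 4-fold threshold on both sides. The 2 contigs just inside had ratios of 4.05 and 4.09, and the 2 just outside had 3.96 and 3.93. The first of those outside had 20.2 and 49.5 CPM in P. grandis, 1.43 and 0.331 CPM in P. costivenia, and 436 and 196 CPM in P. revoluta. The first inside had 0.752 and 20.03 CPM in P. grandis, 0.428 and 0.310 CPM in P. costivenia, and 113 and 81.4 CPM in P. revoluta. In both, P. grandis plant 2 set the ratio.

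The mirrored rule, with the lowest hyperaccumulator plant at least 4 times the highest P. revoluta plant and at least 10 counts in each hyperaccumulator plant, gave 1087 contigs, or 4.14% of the 26248 with that many counts. Without P. grandis plant 2 the numbers were 1890 lower and 2098 higher in the hyperaccumulators. P. grandis plant 1 had reads for 45142 of the 45143 contigs, against 35362 to 38589 in the other plants, and transcripts of P. revoluta that the assembled plant lacked could not be counted. Their part in the smaller number was not tested.

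The running numbers of the 45 contigs were mostly high. The median number was 34276 for the 45 contigs and 16394.5 for the 29422 contigs, and 37 of the 45 contigs lay above the median number of the whole series, 22572, against 34.7% of the 29422. The tables do not say how the numbers were given. The median level in P. grandis plant 1 was 11.7 CPM at or below that number and 0.356 CPM above it. The rule used the level in that plant.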

How the data were processed

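Leaf mRNA of 6 plants was measured by stranded, paired-end sequencing, per the labels' protocols and the series design text. Each deposited table holds, per the file headers, the raw read count of every contig in 1 plant. How reads were assembled, aligned and counted, by strand or where they match several contigs, is not given in the sources used here. Contigs that share sequence therefore have uncertain counts. CPM were computed from library totals. All contigs were tested in R 4.3.3 with edgeR 4.0.16 (filterByExpr by species, minimum count 10 and minimum total 15, which kept 35660 contigs; TMM scaling; robust quasi-likelihood fit of all 6 libraries with species as the factor; two-sided, Benjamini-Hochberg over all contigs, threshold 0.05). The SE was taken as the absolute log2 fold change over the square root of F. Alternatives were DESeq2 1.42.0, limma-voom (limma 3.58.1), no filter, library totals, 4 libraries, a replicate block and leaving out each plant. Plants of 1 species were not copies of a single library, since their counts differed beyond sampling noise (chi-square per contig 62.2 to 670).

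Named contigs were the 2 with the widest gap on the CPM + 0.1 scale. For P. grandis against P. costivenia, the 2 largest fold changes up and down in the edgeR fit were named. As none passed the threshold, they were taken from those without overlap and with at least 10 counts in both plants of the higher species. The contigs, comparisons and alternatives were chosen with earlier results of these data known.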

Additional observations from a re-analysis of the deposited data

Results flagged for a closer look

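The summed level of the 45 contigs in the 4 hyperaccumulator plants had 1 plant far from the others: P. grandis plant 2 at 1163 CPM, with the next plant, P. costivenia plant 1, at 84.3 CPM. The gap was 0.946 of the range, above Dixon's 95% critical value for 4 samples. Without the most abundant contig it was 0.713, below that value.

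That contig, Pgra_v1_contig_35332, stood at 964.9 CPM in P. grandis plant 2, with the next plant, P. grandis plant 1, at 17.6 CPM, a gap of 0.984 of the range. The 4 plants are of 2 species, and chance flags about 1 in 20 groups of like samples. Of the 45 contigs, 12 (26.7%) had a gap above the critical value in either direction. Over the 29422 contigs with at least 10 counts in each P. revoluta plant the share was 15.5%. In 9 of the 12 the plant apart was P. grandis plant 2, on the high side, with no such share computed over the 29422. P. grandis plant 2 was the highest of the 4 plants in 43.1% of the 29422 contigs and in 81.7% of the 7832 contigs described above.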

How the results depend on the processing

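The number of contigs lower in all hyperaccumulator plants was 43 under TMM, 48 under DESeq2 size factors and 45 with no minimum count or a minimum of 50. It was 18 with CPM + 1, 27 with CPM + 0.5, 568 at 2-fold and 7 at 8-fold, and 46 to 1890 without 1 plant. The number higher was 162 with CPM + 1, 352 with CPM + 0.5 and 1146 to 2098 without 1 plant. The summed level in P. revoluta was 8387 ± 954 CPM (SD, n = 2), and 1557 CPM without the most abundant contig.

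For P. grandis against P. costivenia, edgeR called 956 contigs, with 0 of the 45 among them. Library totals alone called 1 of the 45 and put the median log2 fold change over all tested contigs at 0.48, against 0.24 with TMM. DESeq2 called 7972 contigs, 17 of them among the 45. The 4 libraries of these species alone gave 0 (6656 at an unadjusted p of at most 0.05), with 35 of the 45 contigs tested. Leaving out 1 plant gave 0 to 10495 contigs, and 0 to 19 of the 45. For P. costivenia against P. revoluta the count was 6281, with 13556 in DESeq2, 18445 in the 4 libraries and 0 to 17534 without 1 plant. For P. grandis against P. revoluta it was 0 in edgeR (7312 at an unadjusted p of at most 0.05), 5509 in DESeq2, 16 with no filter and 0 to 15201 without 1 plant. The causes were not tested.

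The plants share only a number between species, since the labels name no shared batch. The difference between plants 1 and 2 correlated across contigs at 0.11 between P. grandis and P. costivenia, -0.06 between P. grandis and P. revoluta and 0.01 between P. costivenia and P. revoluta. With the replicate block, edgeR called 0 contigs for P. grandis against P. costivenia (7883 at an unadjusted p of at most 0.05), 976 for P. costivenia against P. revoluta and 0 for P. grandis against P. revoluta (5880 unadjusted).

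The 2 contigs named as lower in P. grandis than in P. costivenia were chosen for a negative fold change with no overlap of the plants. That the fold change kept its direction under all 12 alternatives follows largely from this choice and is no separate check. Its size varied, with log2 values from -7.48 to -1.82 for Pgra_v1_contig_41420 and from -1.65 to -0.742 for Pgra_v1_contig_34276. For the 2 named as higher, the counts of 0 in P. costivenia fix the direction. With 2 plants per species, the spread within a species rests on 1 difference, and levels under 0.0657 CPM are at or near the limit of a count of 0.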
